A study of Mus musculus with 34 samples.

Results

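Immediate early response genes are genes whose transcription rises within minutes of a stimulus and whose mRNAs are short-lived. The 10 examined here were *Fos*, *Fosb*, *Jun*, *Junb*, *Jund*, *Egr1*, *Ier2*, *Dusp1*, *Zfp36* and *Nr4a1*, taken by gene name from the 13108 gene rows of the deposited count table. All 10 were found, and all 10 passed the filter on low counts in each fit. The measurements were RNA-seq counts of hematopoietic stem cells (HSCs), sorted as LSK CD48-CD150+ in samples of 100 cells from C57BL/6 mice. *Ythdf2*CKO mice carried the floxed *Ythdf2* allele on both chromosomes together with *Vav-iCre*, which deletes exon 2 in hematopoietic cells as a whole and not in HSCs alone, and *Ythdf2*CTL mice (WT in the sample titles) carried the floxed allele without Cre. The allele also fuses GFP to YTHDF2, in both genotypes. There were 4 *Ythdf2*CTL and 4 *Ythdf2*CKO young mice, aged 8 to 12 wk, and 4 *Ythdf2*CTL and 5 *Ythdf2*CKO aged mice, aged 1 yr. Each mouse gave 2 libraries, A and B, whose counts were added, so that the mouse is the replicate. Library B of aged *Ythdf2*CTL mouse 99, with 39 counts on the members in a total of 187034, was left out, which left 33 libraries of 17 mice.

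The members fall into 3 roles. *Fos*, *Fosb*, *Jun*, *Junb* and *Jund* encode the FOS and JUN proteins, which pair to form the transcription factor AP-1. *Egr1* encodes a zinc finger transcription factor, *Nr4a1* an orphan nuclear receptor, and *Ier2* a nuclear protein linked to transcription. *Dusp1* and *Zfp36* encode brakes on the response: DUSP1 is a phosphatase that inactivates MAP kinases, and ZFP36 (tristetraprolin) binds AU-rich elements in mRNAs and promotes their decay. Transcription of these genes is started mainly by MAP kinase and calcium signals through serum response factor, which binds CArG boxes, and CREB, which binds cAMP response elements. Their mRNAs are then removed quickly, and the same genes are known to respond when cells are dissociated and sorted. YTHDF2 binds *N*6-methyladenosine (m6A) in mRNAs and promotes their degradation, so the design asks whether these short-lived mRNAs differed in its absence, in young and in aged HSCs.

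The sequence features that bear on mRNA removal were read first. The pentamer ATTTA is the core of the AU-rich element, and it was counted on the mRNA strand of the 3′ UTR of 1 transcript per gene, overlapping matches included. It occurred in 9 of the 10 members, all but *Ier2*, and in 65.3% of the 12298 gene rows with an annotated 3′ UTR, whose lengths differ (median 764 bases in the members and 933 bases in all). The median density was 3.56 ATTTA per kb of 3′ UTR in the members and 1.20 over all those genes. In the first 300 bases after the stop codon, a window of one length for all, 3 of 10 members and 31.9% of 9761 genes held it. The longer form TTATTTATT, which also holds an ATTTA, occurred in *Fos*, *Dusp1* and *Zfp36*, and in 6.84% of all 3′ UTRs. GGACT, 1 of the forms of the m6A consensus, occurred in the first 300 bases after the stop codon in 8 of 10 members and in 30.5% of the 9761 genes. *Ier2* had 4 GGACT in its whole 3′ UTR, *Jund* 3, and *Nr4a1* none. A match is a run of letters and not a measured site of binding or methylation. The following stretches of the GENCODE M21 transcripts (GRCm38) show where ATTTA, in capitals, is densest in the 3′ UTRs of *Fos*, *Jun*, *Dusp1*, *Zfp36* and *Nr4a1*, shown because a stretch of this length holds more than 1 ATTTA in each of them.
Fos 3′ UTR, chr12:85477100-85477129, strand +: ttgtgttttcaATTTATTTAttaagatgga
Jun 3′ UTR, chr4:95049207-95049236, strand -: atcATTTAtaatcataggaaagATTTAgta
Dusp1 3′ UTR, chr17:26506157-26506186, strand -: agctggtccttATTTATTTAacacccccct
Zfp36 3′ UTR, chr7:28376958-28376987, strand -: cctttATTTAtgacgactttATTTAttgta
Nr4a1 3′ UTR, chr15:101274701-101274730, strand +: gATTTAtatttgtgtattttcctggATTTA
In *Fos* and *Dusp1* the pentamers shown overlap, and in *Jun*, *Zfp36* and *Nr4a1* they stand apart.

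Promoters, taken as 250 bases before to 50 bases after the RefSeq start (GRCm38.p6), were given for 8 of the 10 members. The *Jund* window (chr8:70697489-70697788, strand +) lies upstream of the GENCODE M21 start of *Jund* at 70698949. Its lack of the motifs below concerns that window alone. The complete cAMP response element TGACGTCA was found in *Dusp1* alone among the 8 and in 1.79% of all 32851 promoters. The shorter TGACG, counted on both strands and also within each TGACGTCA, was found in 5 of the 8 (*Fos*, *Fosb*, *Junb*, *Dusp1* and *Nr4a1*) and in 20.8% of all promoters. The AP-1 site TGACTCA was found on either strand in 0 of the 8 and in 5.20% of all promoters, which says only that these letters are not in this window. A CArG box was found in *Zfp36* and in 1.63% of all promoters. The 250 bases before the start are printed for *Dusp1*, *Zfp36* and *Nr4a1*, the last with 4 TGACG, with these motifs in capitals (CGTCA is TGACG on the other strand).
Dusp1 promoter, chr17:26508473-26508722, strand -: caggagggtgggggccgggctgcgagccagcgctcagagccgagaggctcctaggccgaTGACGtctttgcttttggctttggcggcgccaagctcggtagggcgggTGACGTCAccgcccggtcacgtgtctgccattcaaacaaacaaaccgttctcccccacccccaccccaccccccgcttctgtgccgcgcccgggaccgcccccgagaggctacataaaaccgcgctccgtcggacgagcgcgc
Zfp36 promoter, chr7:28379229-28379478, strand -: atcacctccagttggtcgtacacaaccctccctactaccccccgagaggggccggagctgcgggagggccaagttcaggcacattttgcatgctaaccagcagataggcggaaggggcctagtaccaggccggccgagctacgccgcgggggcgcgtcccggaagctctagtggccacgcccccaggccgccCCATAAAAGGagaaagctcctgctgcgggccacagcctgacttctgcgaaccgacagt
Nr4a1 promoter, chr15:101266596-101266845, strand +: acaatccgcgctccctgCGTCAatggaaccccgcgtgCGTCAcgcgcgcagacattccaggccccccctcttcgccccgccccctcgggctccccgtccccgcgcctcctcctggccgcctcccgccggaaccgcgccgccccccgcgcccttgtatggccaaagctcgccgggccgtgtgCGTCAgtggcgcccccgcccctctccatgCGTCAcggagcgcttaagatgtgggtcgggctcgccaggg
The *Dusp1* stretch holds the complete element and a further TGACG, and the *Zfp36* stretch holds its CArG box close to the start.

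Total counts per mouse ranged from 2218618 to 10125624, and 3 counts in a library, taken as the floor for a level, stood for 0.385 to 1.61 CPM, a limit that covers counting error only. Levels are given as CPM, counts scaled by TMM to a common library size. The members' share of a mouse's counts was between 0.145% and 0.689% in sum. Gene markers of HSCs (*Procr*, *Slamf1*, *Kit*, *Mecom*, *Hlf* and 4 others) had counts in all 17 mice. Markers of T cells were at or near 0, with a summed level of at most 3.11 CPM, although 3 of the 4 listed T cell genes and 3 of the 5 listed B cell genes have no row in the table. Neutrophil and monocyte markers summed to between 399 and 903 CPM, most of it *Lyz2* (377 to 888 CPM), while *Mpo* reached 80.8 CPM, *S100a8* 34.8 CPM and *S100a9* 24.7 CPM in the highest mouse of each, and *Elane* and *Csf1r* did not exceed 3.11 CPM, and the B cell gene *Cd79b* had 32.5 to 152 CPM. *Ythdf2* itself was between 93.4 and 123 CPM in the young *Ythdf2*CTL mice and between 50.3 and 60.3 CPM in the young *Ythdf2*CKO mice. In aged mice it was between 142 and 179 CPM in 3 *Ythdf2*CTL mice and between 72.4 and 87.8 CPM in 4 *Ythdf2*CKO mice. The mouse labelled *Ythdf2*CKO 121 had 188 CPM and the mouse labelled *Ythdf2*CTL 124 had 70.5 CPM, which goes against both labels. The members' fold changes in aged mice are therefore given with and without these 2 mice. Nothing states that the animals of a group were independent beyond their numbers, and p-values measure the spread between mice.

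**Figure D1:**
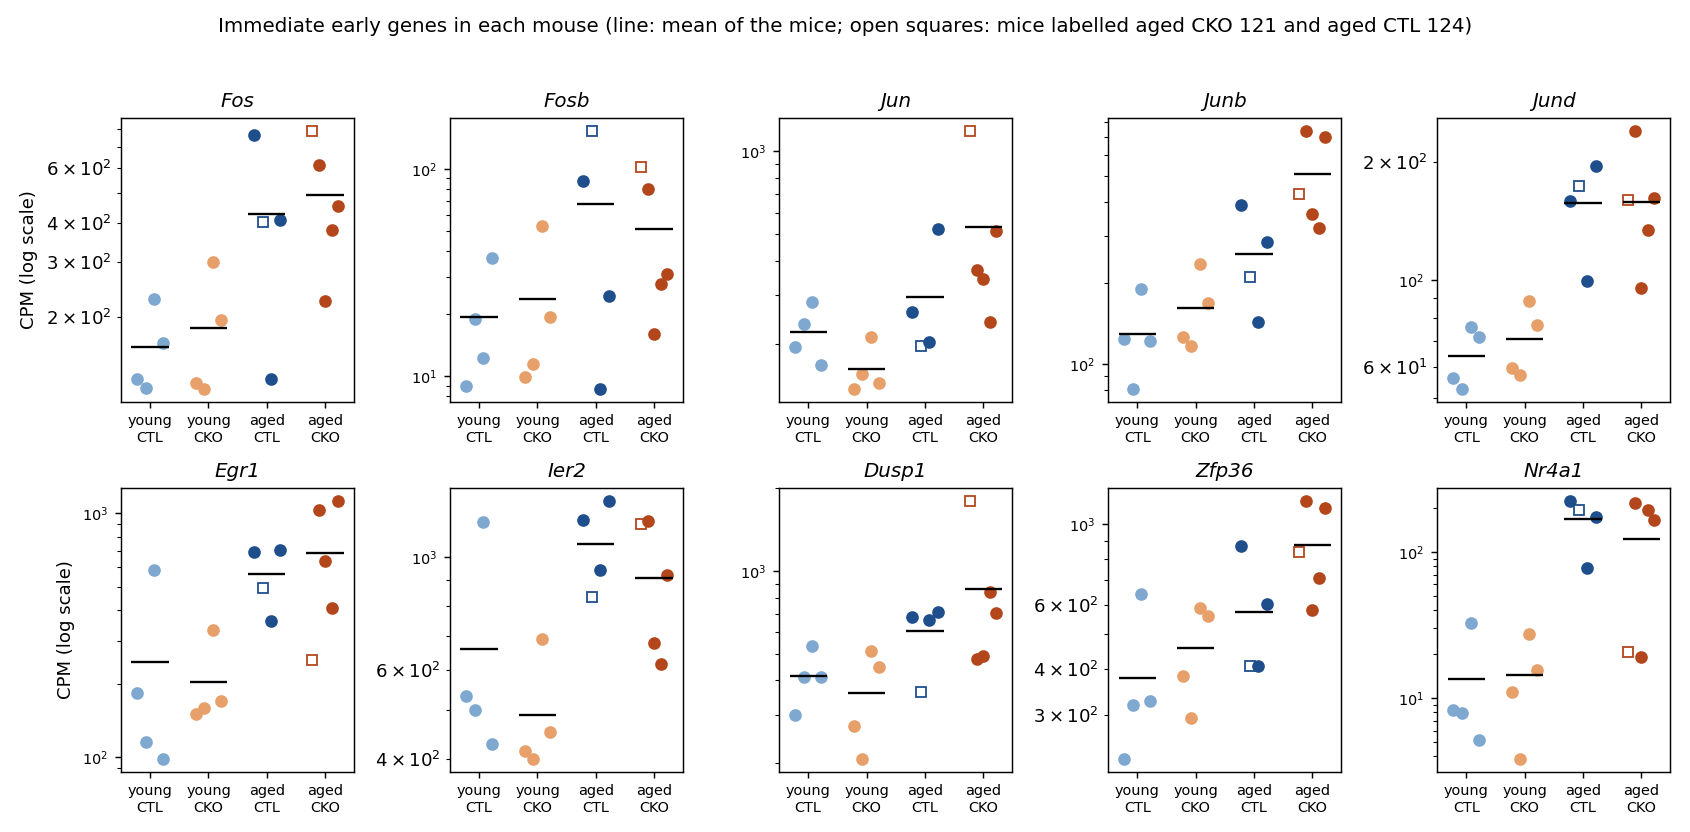
Level of each immediate early gene (CPM, log scale, each panel with its own range) in every mouse of the 4 groups, with the mean of the mice as a line. Open squares are the mice labelled aged CKO 121 and aged CTL 124; *Nr4a1* is between 3.84 and 32.8 CPM in all young mice and at 77.6 CPM or more in 7 of the 9 aged mice.

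Levels were compared between members only per kb of exon model (GENCODE M21). *Ier2* was the highest in all 4 groups, with 432 ± 227 CPM per kb (SD, n = 4) in young *Ythdf2*CTL and 698 ± 138 (n = 4) in aged *Ythdf2*CTL mice. *Fosb* was the lowest in all 4 groups, with 3.10 ± 2.03 and 10.9 ± 10.5 CPM per kb in the same groups, and *Nr4a1* was next to it. The brakes stood high in this order, with *Dusp1* at 125 ± 28.6 and *Zfp36* at 109 ± 52.2 CPM per kb in young *Ythdf2*CTL mice, less than their spread apart. *Jun* at 69.1 ± 15.9, *Fos* at 68.2 ± 21.5, *Junb* at 56.2 ± 19.8 and *Egr1* at 54.8 ± 51.4 CPM per kb were also closer to each other than their spread in these mice. *Jund* was at 38.4 ± 6.80 and *Nr4a1* at 3.87 ± 3.68 CPM per kb, a gap larger than both spreads. In aged *Ythdf2*CKO mice *Ier2* was at 599 ± 173 CPM per kb, above *Dusp1* at 260 ± 165 (n = 5), and *Dusp1*, *Zfp36*, *Junb* and *Fos* were within their spread of each other. Exons of *Jun*, *Jund* and *Zfp36* overlap annotated antisense genes without a row in the table, those of *Junb* share 173 bases with *Prdx2*, and those of *Dusp1* share 11 bases with *Ergic1*. SMART-Seq2 libraries carry no strand, so reads in these overlaps cannot be told apart. *Prdx2* differed by -0.54 and -0.50 between aged and young mice (log2, *Ythdf2*CTL and *Ythdf2*CKO), in the direction opposite to *Junb* in the age comparisons described further on.

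The first comparison asked whether the members differed between *Ythdf2*CKO and *Ythdf2*CTL HSCs of young mice. No member passed the threshold, and the groups overlapped for every member. Fitted log2 fold changes lay between -0.44 and 0.33, with 6 members above and 4 below 0. edgeR's quasi-likelihood test called 0 of 10 members (adjusted p between 0.64 and 0.99), and DESeq2 also called 0 (0.669% of all genes by that tool), as did a likelihood ratio test that took libraries as replicates (0.85% of all genes). Over all 11526 genes tested, edgeR's test called 20, or 0.174%. At an unadjusted threshold 1 member (*Jun*) passed, 10% of the members against 7.06% of all genes. The groups of mice did not overlap for 4.83% of all genes and for 0 members.

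*Jun* was at 194, 236, 283 and 167 CPM in young *Ythdf2*CTL mice 1 to 4 and at 137, 156, 212 and 144 CPM in young *Ythdf2*CKO mice 1 to 4. Mouse 3 was the highest of each genotype, and its *Ythdf2*CKO value lay within the *Ythdf2*CTL range. The fitted difference was -0.44 ± 0.19 (SE, adjusted p = 0.640). The *Fos* values were 127, 119, 229.7 and 166 CPM in *Ythdf2*CTL and 123, 118, 299.9 and 196 CPM in *Ythdf2*CKO mice. Again both mice numbered 3 were highest, and the difference was 0.21 ± 0.28 (adjusted p = 0.946). *Egr1* was at 183, 115, 587 and 98.1 CPM in *Ythdf2*CTL and at 150.1, 159, 332 and 169 CPM in *Ythdf2*CKO mice. Its difference of -0.28 ± 0.44 (adjusted p = 0.956) became 0.62 ± 0.29 without *Ythdf2*CTL mouse 3, the mouse with 587 CPM. *Nr4a1* was near the low end of what was measured, at 8.36, 7.95, 32.8 and 5.16 CPM in *Ythdf2*CTL and at 11.1, 3.84, 27.4 and 15.5 CPM in *Ythdf2*CKO mice. Its lowest library held 5 counts, and its difference was 0.09 ± 0.60 (adjusted p = 0.988). That difference became 1.02 ± 0.57 without *Ythdf2*CTL mouse 3 and -0.42 ± 0.60 without *Ythdf2*CKO mouse 3.

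The other young values were of the same kind. *Ier2* ranged from 429 to 1173 CPM in *Ythdf2*CTL and from 399.8 to 689 CPM in *Ythdf2*CKO mice, *Ythdf2*CTL mouse 3 being the highest. *Zfp36* ranged from 227 to 641 CPM and from 294 to 589 CPM, and *Dusp1* from 300.2 to 532 CPM and from 207 to 514 CPM. The ranges of both brakes thus overlapped over most of their width. *Junb* ranged from 80.8 to 191 CPM and from 117 to 236 CPM, *Jund* from 52.8 to 75.9 CPM and from 57.2 to 88.4 CPM, and *Fosb* from 9.02 to 37.3 CPM and from 9.89 to 53.2 CPM. *Jund* varied least among the members in *Ythdf2*CTL mice, with a coefficient of variation of 17.7%.

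In aged mice the genotypes were compared in the same way, and again no member passed. Fitted log2 fold changes lay between -0.42 and 0.99, with 7 members above and 3 below 0. edgeR's quasi-likelihood test called 0 of 10 members (adjusted p between 0.36 and 0.99), and DESeq2 called 0 (0.872% of all genes by that tool). A p that misses the threshold does not show that levels were alike. edgeR's test called 0 of 11961 genes, 0% of all tested, with 1208 genes (10.1%) at an unadjusted threshold, where 2 members, *Junb* and *Zfp36*, also passed. The groups did not overlap for 3.46% of all genes and for 0 members.

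*Junb* had the largest difference. It was at 143, 285, 392 and 211 CPM in aged *Ythdf2*CTL mice 65, 99, 114 and 124, and at 361, 320.3, 702, 428 and 737 CPM in aged *Ythdf2*CKO mice 78, 81, 94, 121 and 122. Mice 94 and 122 were the highest, and *Ythdf2*CTL mouse 114 lay within the *Ythdf2*CKO range. The difference was 0.99 ± 0.32 (1.99-fold, adjusted p = 0.361), and without mice 121 and 124 it was 0.95 ± 0.35 (adjusted p = 0.312). A likelihood ratio test in edgeR that took every library as a replicate called *Junb* alone among the members (1.00 ± 0.27, adjusted p = 0.0138), beside 3.73% of all genes. That test counts the 2 libraries of a mouse as separate replicates, and its p is too small for a comparison of mice. Over mice, the alternatives gave *Junb* an adjusted p of 0.0832 or above.

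*Zfp36* was at 407, 602, 871 and 408 CPM in the aged *Ythdf2*CTL mice and at 580.1, 709.8, 1103, 839.8 and 1154 CPM in the aged *Ythdf2*CKO mice, in the order of mouse numbers used for *Junb*. The difference was 0.62 ± 0.26 (adjusted p = 0.447), and 0.50 ± 0.28 without mice 121 and 124 (adjusted p = 0.534), with *Ythdf2*CTL mice 99 and 114 within the *Ythdf2*CKO range. *Jun* was at 203, 523, 261 and 196 CPM and at 345, 239, 513, 1186 and 369 CPM. The mouse labelled 121 stood apart, at more than the level of any other mouse, and its 2 libraries had 1197 and 1127 CPM. The *Jun* difference of 0.84 ± 0.43 (adjusted p = 0.526) was 0.15 ± 0.31 without mice 121 and 124 (adjusted p = 0.903). *Dusp1* was at 661, 707, 681 and 362 CPM and at 489.6, 836, 702, 1797 and 479 CPM. The mouse labelled 121 was the highest and the mouse labelled 124 the lowest of all aged mice. Without both, the *Dusp1* difference went from 0.52 ± 0.36 (adjusted p = 0.665) to -0.13 ± 0.20 (adjusted p = 0.870).

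The remaining AP-1 members, *Egr1*, *Ier2* and *Nr4a1* overlapped widely between the aged genotypes. *Fos* ranged from 127 to 769 CPM in *Ythdf2*CTL and from 226 to 789 CPM in *Ythdf2*CKO mice (difference 0.21 ± 0.42, adjusted p = 0.909), and -0.06 ± 0.45 without mice 121 and 124. *Fosb* ranged from 8.71 to 152 CPM and from 16 to 101 CPM. *Jund* ranged from 99.0 to 195 CPM and from 95.0 to 239 CPM, with a difference of 0.02 ± 0.26 (adjusted p = 0.989). *Ier2* ranged from 834 to 1290.4 CPM and from 615 to 1179 CPM, the lower range being that of *Ythdf2*CKO. *Egr1* ranged from 361 to 704 CPM and from 250.2 to 1120.5 CPM, and the mouse labelled 121, highest in *Jun* and *Dusp1*, had the lowest *Egr1* of all aged mice. *Nr4a1* was at 77.6, 175, 223 and 194 CPM in *Ythdf2*CTL mice 65, 99, 114 and 124, and at 19.2, 195, 165, 20.8 and 218 CPM in *Ythdf2*CKO mice 78, 81, 94, 121 and 122. The libraries of mouse 78 had 12.8 and 23.7 CPM and those of mouse 121 had 23.0 and 16.6 CPM, so both mice were low in each of their libraries. Without mice 121 and 124 the differences of *Fosb* (-0.40), *Nr4a1* (-0.42), *Ier2* (-0.22), *Egr1* (0.30) and *Jund* (0.02) became -0.054, -0.084, -0.43, 0.45 and 0.058 in this order, with adjusted p between 0.477 and 0.986.

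**Figure D2:**
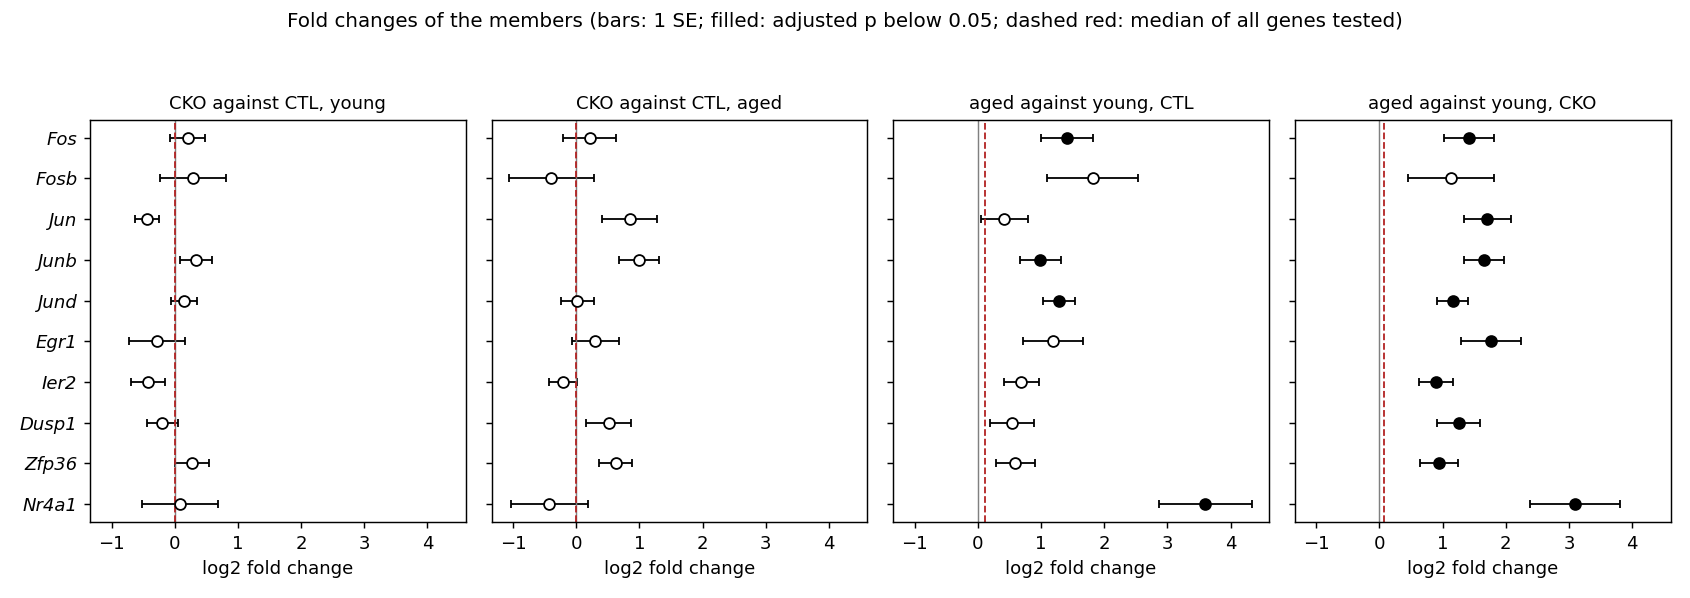
Log2 fold change of each member, with 1 SE, for CKO against CTL in young and in aged mice and for aged against young mice in each genotype. Filled points passed the threshold of 0.05 after adjustment in edgeR, and the dashed line is the median of all genes tested; no point is filled in the genotype panels, 4 are filled in the CTL age panel and 9 in the CKO age panel.

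The difference of the genotype effect between ages was tested as an interaction over all 17 mice. edgeR's quasi-likelihood test called 0 of 10 members (adjusted p of 0.998 or above) and 0 of 12352 genes (0%), and DESeq2, run after the data had been seen, called 0 members. At an unadjusted threshold 1 member (*Jun*) passed, against 4.76% of all genes. The interaction was 1.29 ± 0.52 for *Jun*, and 0.61 ± 0.38 without mice 121 and 124 (adjusted p = 0.846). For *Dusp1* the values were 0.71 ± 0.48 and 0.08 ± 0.35. For the other members the fitted interactions were between -0.69 and 0.66, and between -0.32 and 0.74 without these mice.

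Aged and young mice were then compared within each genotype. All 10 members had a higher fitted level in aged mice in both genotypes. In *Ythdf2*CTL mice 4 members rose, *Nr4a1* (12.1-fold, and more without young mouse 3, as given with its values), *Fos* (2.66-fold), *Jund* (2.44-fold) and *Junb* (1.99-fold). In *Ythdf2*CKO mice 9 members rose, all but *Fosb*, by 1.87-fold (*Ier2*) to 8.55-fold (*Nr4a1*). The descriptions of young and aged libraries begin with different codes and no code covers both ages, so age and whatever the codes stand for cannot be told apart. The interaction above is also the test of whether the age difference itself differed between genotypes, and it called no member, so the larger count in *Ythdf2*CKO mice is not shown to be a difference between genotypes. In RNA from pools of cells, fewer expressing cells and less RNA per cell cannot be told apart.

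By edgeR's quasi-likelihood test over all 17 mice, 14.8% of the 12352 genes were called in either direction in *Ythdf2*CTL mice and 6.70% were higher in aged mice. The members' 4 of 10 is read against the latter share. Among the genes in *Ythdf2*CKO mice, 16.6% were called and 7.21% were higher in aged mice, beside 9 of 10 members. The median log2 fold change of the members was 1.09 in *Ythdf2*CTL and 1.34 in *Ythdf2*CKO mice, beside 0.11 and 0.07 over all genes tested. Aged and young mice did not overlap, with aged higher, for 2 members (*Jund* and *Nr4a1*) in *Ythdf2*CTL mice, beside 7.11% of all genes. This held for 3 members (*Jun*, *Junb* and *Jund*) in *Ythdf2*CKO mice, beside 9.07% of all genes. The counts were the same, 4 and 9, without mice 121 and 124, beside 7.70% and 7.68% of all genes. The log2 fold changes were then 3.51 (*Nr4a1*), 1.44 (*Fos*), 1.25 (*Egr1*), 1.23 (*Jund*), 1.08 (*Junb*), 1.05 (*Fosb*), 0.79 (*Ier2*), 0.73 (*Zfp36*), 0.72 (*Dusp1*) and 0.57 (*Jun*) in *Ythdf2*CTL mice. The values in *Ythdf2*CKO mice were 3.37 (*Nr4a1*), 1.98 (*Egr1*), 1.71 (*Junb*), 1.18 (*Fos*), 1.18 (*Jun*), 1.16 (*Jund*), 0.96 (*Zfp36*), 0.80 (*Dusp1*), 0.80 (*Ier2*) and 0.72 (*Fosb*). The values of *Fosb* in both genotypes and of *Jun*, *Dusp1* and *Fos* in *Ythdf2*CKO mice had the largest decreases when the 2 mice were left out. DESeq2, run on age after the data had been seen, called 3 members in *Ythdf2*CTL mice, *Junb* being lost (adjusted p = 0.0507), and 9 in *Ythdf2*CKO mice, beside 9.45% and 10.3% of all genes called higher by that tool.

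*Nr4a1* had the largest age difference. Its 8 young mice lay between 3.84 and 32.8 CPM and its 4 aged *Ythdf2*CTL mice between 77.6 and 223 CPM, with no overlap. The log2 fold change was 3.60 ± 0.74 (adjusted p = 0.00383) in *Ythdf2*CTL mice. In *Ythdf2*CKO mice it was 3.10 ± 0.71 (adjusted p = 0.00561), with mice 78 and 121 inside the young range and the other 3 at 165 CPM or more. The *Ythdf2*CTL value rested in part on young mouse 3, whose 32.8 CPM stood beside 5.16 to 8.36 CPM in the other 3, and it was 4.54 without that mouse. *Nr4a1* passed in all 17 fits that left out 1 mouse, in both genotypes.

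*Jund* had the smallest pooled SD between mice of a group on the log2 scale among the members, although *Jun* in young *Ythdf2*CKO mice, *Ier2* in aged *Ythdf2*CTL mice and *Ier2* and *Zfp36* in aged *Ythdf2*CKO mice had lower coefficients of variation. Young mice were at 56.1, 52.8, 75.9 and 71.4 CPM (*Ythdf2*CTL 1 to 4) and 59.5, 57.2, 88.4 and 76.9 CPM (*Ythdf2*CKO 1 to 4). Aged mice were at 99.0, 195, 159 and 173 CPM (*Ythdf2*CTL 65, 99, 114 and 124) and 95.0, 134, 161, 159.6 and 239 CPM (*Ythdf2*CKO 78, 81, 94, 121 and 122). Every aged mouse was above every young mouse of both genotypes. The log2 fold changes were 1.28 ± 0.25 (adjusted p = 0.00294) and 1.16 ± 0.24 (adjusted p = 0.00310), past the threshold in all 17 fits that left out 1 mouse in both genotypes.

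Among the other AP-1 members, *Fos* and *Junb* passed in *Ythdf2*CTL mice, and *Jun* and *Fosb* did not. In *Ythdf2*CTL mice *Fos* rose by 1.41 ± 0.42 (adjusted p = 0.0272), but aged mouse 65, at 127 CPM, lay within the young range. The call was lost without aged mouse 114 (0.96, adjusted p = 0.121) and without young mouse 1, 2 or 4 (1.29 to 1.43, adjusted p between 0.0671 and 0.0802). *Junb* rose by 0.99 ± 0.32 (adjusted p = 0.0423). It lost the call in 6 of the 17 fits that left out 1 mouse, namely aged *Ythdf2*CTL mouse 99 or 114, young *Ythdf2*CTL mouse 1, 2 or 4, or young *Ythdf2*CKO mouse 4, with adjusted p up to 0.154, and also when only the 2 *Ythdf2*CTL groups were fitted (adjusted p = 0.0608). Both the *Fos* and the *Junb* call were lost in edgeR's quasi-likelihood test with a covariate of Y-linked genes (1.14 and 0.91, adjusted p = 0.0875 and 0.09105). *Jun* in *Ythdf2*CTL mice had a difference of 0.42 ± 0.37 (adjusted p = 0.485), and -0.01 without aged mouse 99, the highest aged *Ythdf2*CTL mouse for this gene. *Fosb* had 1.82 ± 0.72 (adjusted p = 0.0934), and 2.19 (adjusted p = 0.0312) without aged mouse 65, whose 8.71 CPM was below every young *Ythdf2*CTL mouse.

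In *Ythdf2*CKO mice *Jun* rose by 1.71 ± 0.37 (adjusted p = 0.00391) and by 1.17 without the mouse labelled 121, and it passed in all 17 fits that left out 1 mouse (highest adjusted p = 0.0163). *Junb* rose by 1.65 ± 0.31 (adjusted p = 0.00164), its lowest aged mouse at 320.3 CPM and its highest young mouse at 236 CPM. *Fos* rose by 1.42 ± 0.40 (adjusted p = 0.0193) and lost the call without the mouse labelled 121 (1.18, adjusted p = 0.0560), young mouse 1 (1.26, adjusted p = 0.0620) or young mouse 2 (1.25, adjusted p = 0.0749). *Fosb* had 1.13 ± 0.68 (adjusted p = 0.276).

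*Egr1* and *Ier2* showed how much 1 mouse could weigh. In *Ythdf2*CTL mice *Egr1* had a difference of 1.19 ± 0.48 (adjusted p = 0.100) and *Ier2* of 0.69 ± 0.28 (adjusted p = 0.100). Young mouse 3 was the highest young mouse for both, inside the aged range. Without it *Egr1* passed at 2.08 (adjusted p = 0.00705), *Ier2* at 1.11 (adjusted p = 0.00947) and *Zfp36* at 0.96 (adjusted p = 0.0465), and the count of members called went from 4 to 7. Over the whole table, genes called higher in aged *Ythdf2*CTL mice went from 828 of 12352 to 408 of 12454. For *Ythdf2*CKO mice, *Egr1* rose by 1.77 ± 0.47 (adjusted p = 0.0139), a call lost without young mouse 2 (1.67, adjusted p = 0.0519). *Ier2* rose by 0.90 ± 0.27 (adjusted p = 0.0253), and the call was lost without aged mouse 121 or 122 or young mouse 1, 2 or 4 (0.78 to 0.86, adjusted p between 0.0581 and 0.0882).

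The brakes followed the same direction. *Dusp1* in *Ythdf2*CTL mice had a difference of 0.54 ± 0.35 (adjusted p = 0.310), with the mouse labelled 124 within the young range. In *Ythdf2*CKO mice it rose by 1.26 ± 0.34 (adjusted p = 0.0148), a call lost without the mouse labelled 121 (0.79, adjusted p = 0.0555) or young mouse 2 (1.06, adjusted p = 0.0635). *Zfp36* had 0.59 ± 0.31 (adjusted p = 0.199) in *Ythdf2*CTL mice and rose by 0.94 ± 0.29 (adjusted p = 0.0319) in *Ythdf2*CKO mice, where the call was lost without aged mouse 94 or 122 or young mouse 1 or 2 (0.78 to 0.86, adjusted p between 0.0744 and 0.119). Leaving out young *Ythdf2*CKO mouse 2, the lowest young mouse for *Nr4a1*, took the count of members called in *Ythdf2*CKO mice from 9 to 4, the lowest of these fits. Over the whole table, genes called higher in aged *Ythdf2*CKO mice also went from 891 of 12352 to 484 of 12525.

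Lists of related genes were read beside the members. Of 38 tested genes on a list of other immediate early and early response genes, 11 were higher and 0 lower in aged *Ythdf2*CTL mice, and 7 were higher and 0 lower in aged *Ythdf2*CKO mice, beside 6.70% and 7.21% of all genes higher. Without mice 121 and 124, 7 of 39 were higher in each genotype, beside 7.70% and 7.68% of all genes. The median log2 fold change of the list was 0.83 in both genotypes, and 0.84 and 0.77 without these mice. *Klf6*, a zinc finger transcription factor, rose from 75.2 ± 19.4 to 218 ± 50.7 CPM (1.53 ± 0.34, adjusted p = 0.00576) in *Ythdf2*CTL mice and by 1.40 ± 0.33 (adjusted p = 0.00645) in *Ythdf2*CKO mice. *Btg2*, an antiproliferative early response gene, had 0.79 ± 0.45 (adjusted p = 0.250) in *Ythdf2*CTL mice and rose by 1.73 ± 0.44 (adjusted p = 0.00992) in *Ythdf2*CKO mice. *Rhob*, a small GTPase, had 0.68 ± 0.39 (adjusted p = 0.255) and rose by 1.5 ± 0.38 (adjusted p = 0.0107). None of the 33 genes of this list tested in young mice or the 38 tested in aged mice was called between genotypes by edgeR's quasi-likelihood test.

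Among 26 kinases and factors that act upstream of the members, 2 were higher and 0 lower in aged *Ythdf2*CTL mice, and 3 were higher and 3 lower in aged *Ythdf2*CKO mice. With 26 genes listed, 2 and 3 higher are close to the shares over all genes, 6.70% and 7.21% higher, so nothing is read from the list as a whole. The shares of all genes lower were 8.07% and 9.34%. The kinase *Rps6ka1* rose in both, by 0.82 ± 0.26 (adjusted p = 0.0405) and 0.92 ± 0.25 (adjusted p = 0.0158). *Mapk3*, which encodes ERK1, had 0.69 ± 0.24 (adjusted p = 0.0589) and rose by 0.93 ± 0.23 (adjusted p = 0.00937), and *Mkl1*, a cofactor of serum response factor, rose by 1.48 ± 0.41 (adjusted p = 0.0203) in *Ythdf2*CTL mice, a call lost without mice 121 and 124 (0.91 ± 0.35, adjusted p = 0.0761), where *Mapk3* passed at 0.76 (adjusted p = 0.0196). *Atf1*, a relative of CREB, fell by 1.28 on the log2 scale in *Ythdf2*CKO mice (adjusted p = 0.00129), from 146 ± 70.7 to 60.2 ± 9.87 CPM. Among 18 AU-rich element binding and mRNA decay factors, 4 were higher and 0 lower in each genotype, with and without mice 121 and 124. The shares of all genes higher were 6.70% and 7.21%, and 7.70% and 7.68% without these mice. *Zfp36l1* and *Zfp36l2*, the relatives of *Zfp36*, rose in both genotypes, by 0.70 ± 0.21 and 0.74 ± 0.25 in *Ythdf2*CTL mice (adjusted p = 0.0262 and 0.04998). Both are also on the list of early response genes and are counted there too, so the 2 lists are not separate. *Khsrp*, a decay factor, rose by 1.10 ± 0.29 in *Ythdf2*CKO mice (adjusted p = 0.0126).

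Of 12 tested heat shock and cell handling genes, 0 were higher and 2 lower in aged *Ythdf2*CTL mice, and 0 were higher and 3 lower in aged *Ythdf2*CKO mice, beside 8.07% and 9.34% of all genes lower. Without mice 121 and 124 the counts lower were 2 and 5, beside 9.92% and 10.4% of all genes. The median log2 fold change of the list was 0.37 in *Ythdf2*CTL mice, with 7 of the 12 above 0, and -0.37 in *Ythdf2*CKO mice, beside 0.11 and 0.07 over all genes. The chaperone genes *Hspe1* and *Dnaja1* fell in both genotypes, *Hspe1* from 291 ± 64.1 to 128 ± 63.9 CPM in *Ythdf2*CTL mice (adjusted p = 0.00530), and *Hspa8* fell in *Ythdf2*CKO mice (adjusted p = 0.0393). Their part in the members' levels was not tested. Markers of megakaryocytes and platelets summed to between 513 and 872 CPM in young and between 389.7 and 612 CPM in aged *Ythdf2*CTL mice, and to between 1005 and 3147 CPM in young and between 568 and 2085 CPM in aged *Ythdf2*CKO mice. Those ranges overlapped between ages, as did the erythroid and the neutrophil and monocyte sums. Markers of multipotent progenitors did not overlap in *Ythdf2*CKO mice, with 517 to 675 CPM in young and 241 to 356 CPM in aged mice, and overlapped in *Ythdf2*CTL mice (464 to 581 and 184 to 616 CPM). B cell markers did not overlap in *Ythdf2*CTL mice, with 78.6 to 88.9 CPM in young and 32.5 to 75.3 CPM in aged mice, and overlapped in *Ythdf2*CKO mice (89.8 to 152 and 55.0 to 104 CPM). That sum is nearly *Cd79b* alone, since the only other B cell gene with a row, *Cd79a*, had at most 1.24 CPM. Both of these marker sums were thus lower in aged mice in the genotype named, where members were higher, and their part in the members' age difference was not tested.

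The 2 libraries of a mouse, each of 100 cells, show how repeatable a level was. The median absolute log2 ratio of library A to library B over 16 mice ran from 0.18 for *Zfp36* to 0.74 for *Nr4a1*, beside 0.49 over all genes tested. *Junb* had 0.24, *Dusp1* 0.25 and *Egr1* 0.27, and *Fos* 0.50. The largest single gap was that of *Fosb* in young *Ythdf2*CTL mouse 1, with 14.6 CPM (36 counts) in library A and 2.39 CPM (5 counts) in library B. For 9 of the 10 members the SD between mice of a group exceeded the SD between libraries of a mouse, by 1.42 times (*Ier2*) to 2.60 times (*Dusp1*), and for *Jund* the ratio was 0.911. The ratio of the medians over all genes tested was 0.814. The SD between mice is of counts summed per mouse and the SD within a mouse is of single libraries. A ratio below 1 thus does not show that mice differed less than libraries. The SD between mice was 1.3 for *Nr4a1* and 1.26 for *Fosb* on the log2 scale, and 0.39 for *Jund*, beside a median of 0.33 over the 6721 genes at or above the mean level of *Fosb*, the lowest member in this measure. In each of these 16 mice, A and B were farther apart than counting error alone would place them.

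**Figure D3:**
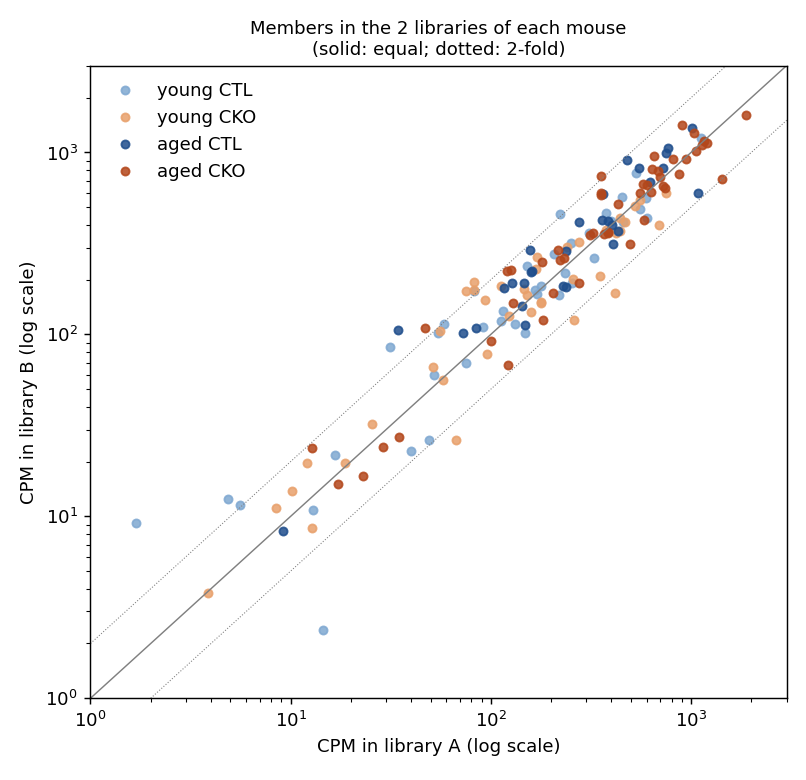
CPM of each member in library A (horizontal) and library B (vertical) of the 16 mice with 2 libraries, both on log scales, 1 point per member and mouse. Solid and dotted lines mark equal and 2-fold different levels; the point farthest from the solid line is *Fosb* of young CTL mouse 1, with 14.6 and 2.39 CPM.

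Within their groups the mice tended to be high or low in many members at once. Young *Ythdf2*CKO mouse 3 was above the mean of its group in 10 of 10 members and young *Ythdf2*CTL mouse 3 in 9, all but *Fosb*. Aged *Ythdf2*CTL mice 99 and 114 were above it in 9 each. Young *Ythdf2*CKO mice 1 and 2 were above it in 0, and aged mice 65 (*Ythdf2*CTL) and 78 (*Ythdf2*CKO) in 1 each. The mouse labelled *Ythdf2*CKO 121 was mixed, with *Jun*, *Dusp1*, *Fos* and *Fosb* high and *Egr1* and *Nr4a1* low.

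**Figure D4:**
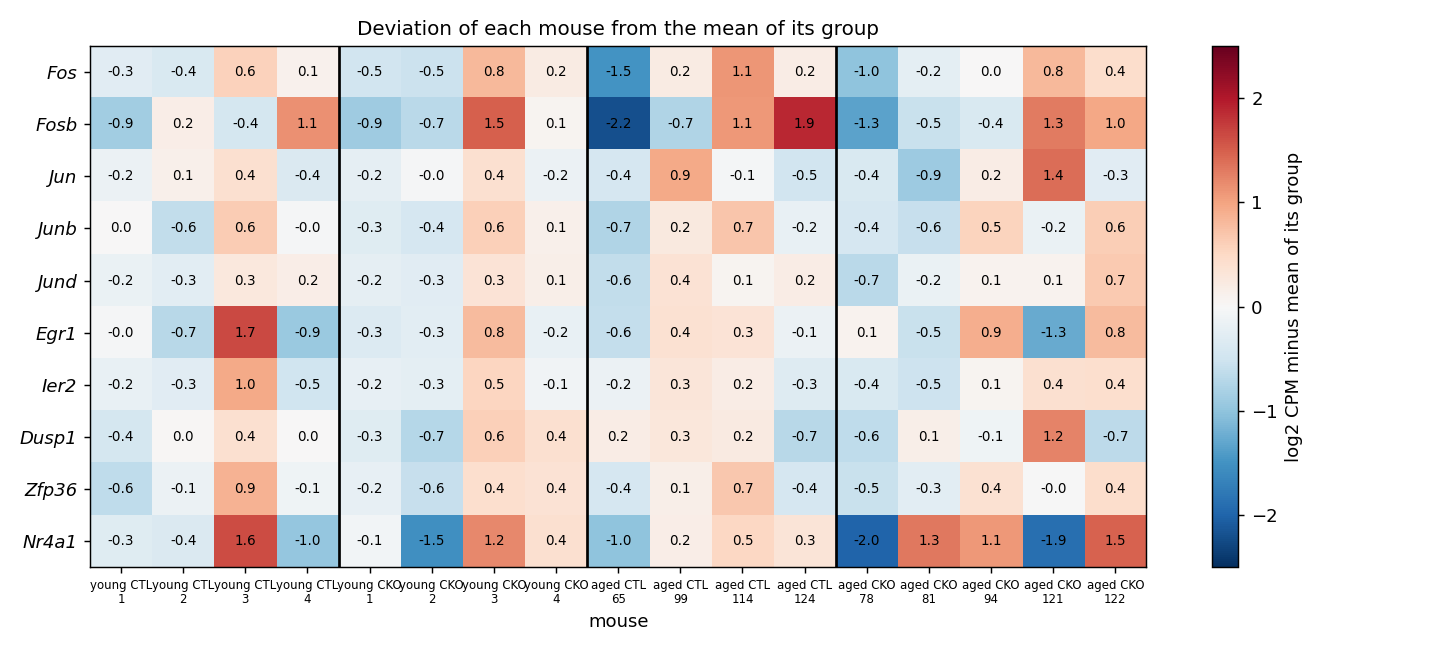
Difference of each mouse from the mean of its group in log2 CPM, for 10 members (rows) and 17 mice (columns, with the labelled mouse number), red above and blue below. Columns of one colour are mice in which most members deviate in one direction, such as young mice 3 of both genotypes (red) and aged mice 65 and 78 (mostly blue).

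Over the 17 mice, after the group means had been subtracted from log2 CPM, 42 of the 45 pairs of members correlated positively, with a median Pearson r of 0.48 and a median Spearman rho of 0.55. These are descriptions over mice that share libraries and depth with every gene. The median over all pairs of 618 genes, taken as every 20th gene tested, was 0.00, and 6.90% of those pairs were above 0.5, beside 21 of the 45 member pairs. The closest pairs were *Junb* with *Zfp36* (r = 0.84), *Fos* with *Jund* (0.81) and *Fos* with *Fosb* (0.79). The negative pairs were *Jun* with *Nr4a1* (-0.14), *Egr1* with *Dusp1* (-0.13) and *Fosb* with *Egr1* (-0.01). Without mice 121 and 124 all 45 pairs were positive, with a median r of 0.65 and a highest r of 0.96, for *Egr1* with *Ier2*. Among the 8 young mice the median r was 0.72, and among the 9 aged mice 0.43. Each member against the mean of the other 9 gave 0.87 for *Zfp36*, 0.86 for *Fos* and *Junb*, and 0.38 for *Dusp1*.

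**Figure D5:**
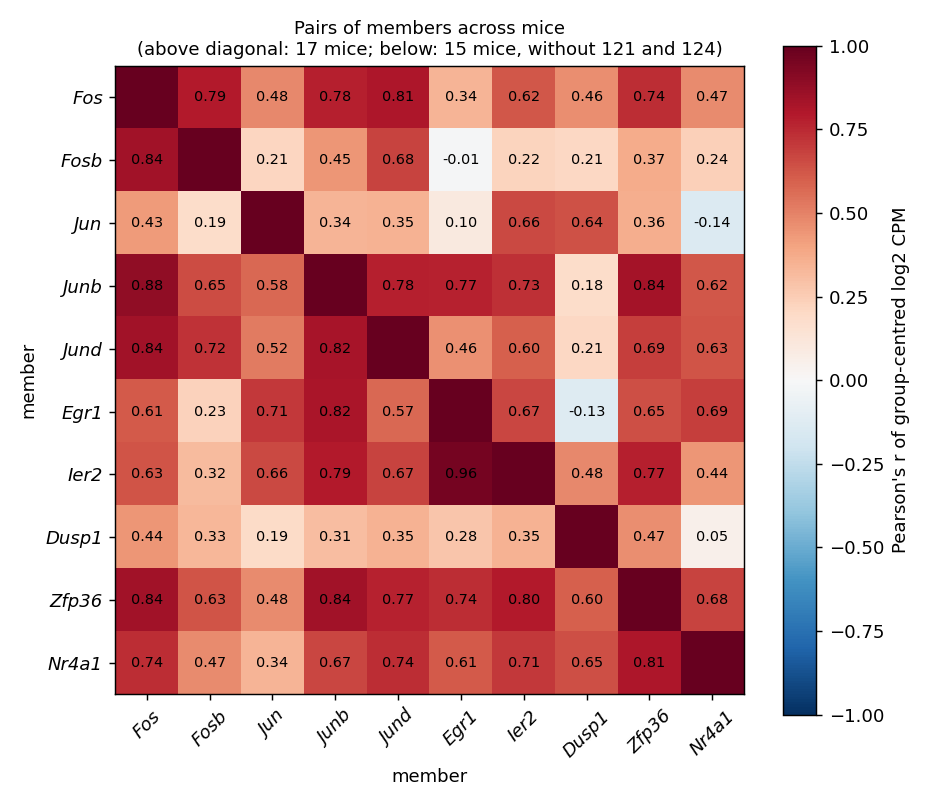
Pearson's r between members over mice, from log2 CPM with the group means subtracted, for all 17 mice above the diagonal and for 15 mice below it. *Fos*, *Junb*, *Jund*, *Ier2* and *Zfp36* form the block of high values above the diagonal, and every value below it, where mice 121 and 124 are left out, is above 0.

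Outside the lists, the 10 genes that followed the mean of the members most closely over 17 mice were *Hipk3* (r = 0.87), *Cbln3* (0.82), *Kmt5b* (0.80), *Tmppe* (0.79), *Intu* (0.76), *Gm16702* (0.75), *1700030K09Rik* (0.75), *Cebpb* (0.74), *Marcks* (0.74) and *Abtb2* (0.73). They are the highest r among the genes tested outside the lists, picked in these same 17 mice, so their size alone is no evidence of a link to the members. Among the 10 genes, *Cbln3*, *Gm16702* and *Abtb2* had a mean of 1.49 CPM or less, near the floor. *Cebpb*, a transcription factor, was called in the age comparison too, with 1.40 in *Ythdf2*CTL (adjusted p = 0.00221) and 0.98 in *Ythdf2*CKO mice (adjusted p = 0.0104), and the other 9 were not called in either. *Hipk3*, a kinase, had the highest r, with an age difference of 0.41 in *Ythdf2*CTL and 0.15 in *Ythdf2*CKO mice (adjusted p = 0.416 and 0.778).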

How the data were processed

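HSC RNA was sequenced from 33 SMART-Seq2 libraries of 17 mice, and 1 of the 34 deposited libraries was left out for its low total, as the authors did. Per the labels and the study's methods, the authors aligned reads with HISAT2 to mm10 (GRCm38) and used Rsubread to assign them to genes. What they deposited are raw whole-number counts for each gene and library, in 13108 rows, 1 of them with no count. The annotation, the use of strand and the rule for shared reads are not given in the sources used here. Counts of the libraries of a mouse were added (2218618 to 10125624 per mouse). Without molecular identifiers, limits from counts cover counting error only.

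In R 4.3.3, edgeR 4.0.16 (filterByExpr, minimum count 10, minimum total 15; TMM; quasi-likelihood test; Benjamini-Hochberg adjustment over all genes, threshold 0.05) was fitted to young and aged mice apart for genotype and to all 17 mice for age and the interaction. The SE of a log2 fold change was taken from F (its absolute size over the root of F). Correlations used log2 CPM (prior count 2). The scripts were tested on simulated data. The genes named are the 10 members, *Ythdf2*, up to 4 called genes of each list by smallest adjusted p, and the 10 genes outside the lists that correlate best with the members' mean. A gene that the rule names among the decay factors is not reported here. The members and lists were chosen with earlier results of these data known. Alternatives were DESeq2 1.42.0, its size factors, no TMM, no filter, a Y-linked covariate, likelihood ratio tests, libraries as replicates, a replicate block, other prior counts, and mice left out. The tests with DESeq2 and the Y-linked covariate for age and the interaction, correlations within each age, and the lists without mice 121 and 124, were chosen after seeing the data. Exon models are those of GENCODE M21, to which 13045 row names and all 10 members matched, and promoters are those of RefSeq.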

Additional observations from a re-analysis of the deposited data

Results flagged for a closer look

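A mouse stood apart from the others of its group in 7 of the 44 sets of values examined (10 members and *Ythdf2* in 4 groups of 4 or 5 mice), where its gap to the next mouse took up an unusually large share of the group's range. Chance would give about 2.2 such sets if values were normally distributed. The members varied together over mice, so the sets are not independent, and 7 beside 2.2 does not show an excess over chance.

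In the mouse labelled aged *Ythdf2*CKO 121, *Jun* was at 1186 CPM, next to 513 CPM, *Dusp1* at 1797 CPM, next to 836 CPM, and *Ythdf2* at 188 CPM, next to 87.8 CPM. In the mouse labelled aged *Ythdf2*CTL 124, *Dusp1* was low at 362 CPM, next to 661 CPM. In young *Ythdf2*CTL mouse 3, *Ier2* was at 1173 CPM, next to 531 CPM, and *Nr4a1* at 32.8 CPM, next to 8.36 CPM. In young *Ythdf2*CKO mouse 3, *Egr1* was at 332 CPM, next to 169 CPM. The part of sorting or handling in these values was not tested.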

How the results depend on the processing

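No alternative called a member between genotypes in young mice, and in aged mice a likelihood ratio test with libraries as replicates called 1, *Junb*. The number of genes called over the whole table varied more. For young genotype it was 77 with DESeq2, 67 with the likelihood ratio test over mice and 90 over libraries, 47 with libraries as replicates and no block, 50 with the library letter as a replicate block, 14 with the mouse number as a replicate block and 9 with a Y-linked covariate. For aged genotype DESeq2 gave 104, the likelihood ratio test 76 over mice and 420 over libraries, libraries as replicates 130 with no block and 40 with the library letter as a replicate block, the Y-linked covariate 0, and the fit without mice 121 and 124 gave 40. The interaction called 15 genes without those mice, and aged against young *Ythdf2*CTL mice called 921 when only these groups were fitted. With a Y-linked covariate 2 members were called in that comparison, *Fos* and *Junb* being lost, beside 709 of 12352 genes called higher. DESeq2 and the fit of only these groups called 3, *Junb* being lost (adjusted p = 0.0507 and 0.0608). Beside these stood 1121 of 11865 and 387 of 11633 genes called higher. Some values that were not called turned their sign: with the covariate *Fos* (-0.015), *Fosb* (-0.43) and *Egr1* (0.13) in young, *Jund* (-0.0082) in aged and *Fosb* (0.055) in the interaction, with the mouse number as a block *Egr1* in young (0.033), without mice 121 and 124 *Fos* (-0.061) and *Dusp1* (-0.13) in aged and *Fos* (-0.26) in the interaction, and with DESeq2's size factors (-0.0036) or test (-0.0051) *Fos* in the interaction. With each mouse left out in turn, genes called ranged from 0 to 18 (young genotype), 0 to 16 (aged genotype), 0 to 2 (interaction), 896 to 2048 (age, *Ythdf2*CTL) and 1183 to 2655 (age, *Ythdf2*CKO). Members called for age ranged from 2 to 7 and from 4 to 9. Ranges that crossed 0 were, in young, -0.13 to 0.43 (*Fos*), -0.50 to 0.81 (*Fosb*), -0.63 to 0.62 (*Egr1*), -0.64 to 0.010 (*Ier2*) and -0.42 to 1.02 (*Nr4a1*), in aged, -0.11 to 0.65 (*Fos*), -0.80 to 0.34 (*Fosb*) and -0.18 to 0.15 (*Jund*), in the interaction, -0.30 to 0.45 (*Fos*), -1.24 to 0.085 (*Fosb*), -0.33 to 0.0090 (*Jund*), -0.32 to 0.92 (*Egr1*), -0.22 to 0.42 (*Ier2*) and -0.026 to 0.63 (*Zfp36*), and for age in *Ythdf2*CTL mice -0.0061 to 0.56 (*Jun*). The causes were not tested. Mice that share a number in the young groups are different animals, and over all genes their deviations were not correlated (r from -0.04 to 0.05). For the members, both mice numbered 3 deviated upward, by 1.18 and 1.09 SD on average, with the log2 deviations of each member scaled to an SD of 1. With the mouse number as a block the SE went from 0.44 to 0.23 for *Egr1* and from 0.28 to 0.16 for *Fos*, with no member called. Limits of depth bear on *Fosb* and *Nr4a1* in young mice, where a library held as few as 5 counts.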
